A study of Mus musculus with 44 samples.

Results

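Conventional dendritic cells of type 2 (cDC2) are usually recognized by a small set of genes, and 8 of them were followed here: Sirpa, Irf4, Klf4, Zeb2, Cd209a, Mgl2, Clec10a and Clec4a4. They were taken by symbol from the 14699 genes of the deposited table, with no threshold on a measured value but with earlier results of these data known, and all 8 symbols were found. All 8 also passed the filter on low values (5 or more of the 44 libraries with 1 CPM or more), which left 11963 genes for the tests. CPM is the number of reads of a gene per 1000000 reads counted on genes in a library.

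CD45+CD11c+MHCIIhigh cells, a gate that in a lymph node holds mainly migratory dendritic cells, had been sorted from the draining inguinal lymph node 24 h after an injection under the skin, and their RNA was sequenced. Injections and collections fell at ZT3, ZT9, ZT15 and ZT21, where ZT is the number of hours after lights on. Mice labelled WT received B16-F10-OVA cells, a mouse melanoma line that carries ovalbumin as a model antigen (20 libraries, 5 per timepoint). Mice labelled KO received the same cells (12 libraries, 3 per timepoint), and a sham group labelled WT received PBS alone (12 libraries, 3 per timepoint). The KO mice carried floxed alleles of Arntl, the gene of the clock protein BMAL1, on both chromosomes and 1 copy of Clec9a-cre, which drives recombination in cells with a history of Clec9a expression. All mice were adult females, and each library came from 1 mouse. There was no group of KO mice that received PBS. In the text these groups are called WT, KO-labelled and PBS.

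cDC2 take up antigen in skin and other tissues, migrate to the lymph node through lymph vessels and present peptides mainly to CD4+ T cells. The 8 genes fall into 3 functional kinds. Irf4, Klf4 and Zeb2 encode transcription factors: IRF4 is needed for the migration and the survival of many cDC2, KLF4 for a subset that promotes type 2 immunity in skin, and ZEB2 is a repressor that restrains the type 1 programme. Sirpa encodes an inhibitory receptor for CD47 and is the usual surface marker of cDC2. Cd209a (a mouse relative of DC-SIGN), Mgl2 and Clec10a (the lectins CD301b and CD301a, which bind galactose-type sugars) and Clec4a4 (DCIR2, a marker of cDC2 in the spleen) encode C-type lectin receptors. Cd209a, Mgl2 and Clec10a are also found in some dendritic cells derived from monocytes and in some macrophages.

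The members lie on 6 chromosomes in the mm10 genome (coordinates and strands from GRCm38.p6 in RefSeq). Sirpa is at chr2:129591042-129632228 (+) and Zeb2 at chr2:44983512-45117442 (−). Irf4 is at chr13:30749233-30766981 (+), Klf4 at chr4:55527137-55532475 (−), Cd209a at chr8:3743395-3748984 (−) and Clec4a4 at chr6:122990367-123024421 (+). Mgl2 at chr11:70130125-70137542 (+) and Clec10a at chr11:70166623-70170836 (+) are neighbours on the same strand. RefSeq windows of 250 bases before to 50 bases after a start were at hand for Irf4, Klf4, Cd209a, Mgl2 and Zeb2. The windows were searched on both strands for the E-box CACGTG, to which the clock protein BMAL1 can bind with its partner, for the D-box (TTATGTAA or TTACGTAA) and for the PU.1 site GAGGAAGT. An E-box was present in 7.15% of 32851 windows of the same length, a D-box in 1.06% and the PU.1 letters in 3.20%. Among the members, Klf4 had 1 E-box, which began 182 bases before the start, and no other match was found in these windows. The 250 bases before the starts of Klf4, of Cd209a, which differed most between WT and PBS libraries, and of Irf4, which was called in no comparison of groups, are shown 5′ to 3′ on the strand of the gene, with the E-box in capitals.
Klf4: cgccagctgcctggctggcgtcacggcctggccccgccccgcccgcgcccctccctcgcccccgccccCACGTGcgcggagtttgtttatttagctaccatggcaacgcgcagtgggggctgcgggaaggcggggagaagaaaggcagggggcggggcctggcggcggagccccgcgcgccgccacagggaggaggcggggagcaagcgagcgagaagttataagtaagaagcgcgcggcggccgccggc
Cd209a: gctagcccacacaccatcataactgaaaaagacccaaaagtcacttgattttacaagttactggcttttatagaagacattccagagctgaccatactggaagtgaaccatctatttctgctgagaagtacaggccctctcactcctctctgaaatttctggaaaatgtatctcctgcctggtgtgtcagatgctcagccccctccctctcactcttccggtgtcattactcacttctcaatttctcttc
Irf4: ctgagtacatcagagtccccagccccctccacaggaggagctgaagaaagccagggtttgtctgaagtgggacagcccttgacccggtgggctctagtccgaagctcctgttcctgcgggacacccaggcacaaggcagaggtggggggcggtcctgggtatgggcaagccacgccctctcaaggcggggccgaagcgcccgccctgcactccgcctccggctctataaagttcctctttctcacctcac
The stretch of Klf4 (chr4:55532476-55532725) consisted of 74% G and C with 32 CpG dinucleotides. That of Irf4 (chr13:30748983-30749232) had 63.6% and 11, and that of Cd209a (chr8:3748985-3749234) had 44.8% and 1. A match or its lack describes these letters only and does not show whether a factor binds.

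The number of reads counted on genes was 20088012 to 28962671 in WT, 29406729 to 55799163 in KO-labelled and 28003328 to 49590055 in PBS libraries. WT libraries were therefore shallower than nearly all others, and depth and group cannot be told apart in the comparisons that involve WT. The ranges of KO-labelled and PBS libraries overlapped. Arntl, for which the table gives 1 value for the whole gene, was not lower under the KO label: it was 14.8 ± 3.65 CPM in WT (SD, n = 20), 19.9 ± 6.91 in KO-labelled (n = 12) and 21.7 ± 6.11 in PBS libraries (n = 12). The deletion was therefore not seen at this level, and directions drawn from this group rest on the label. Clec9a, whose promoter drives the Cre, was at 1.89 ± 0.732 CPM in WT, 0.969 ± 0.827 in KO-labelled and 4.76 ± 2.31 in PBS libraries. The sorted cells carried the defining genes of migratory dendritic cells in all libraries, with a summed level of 12 such genes (Ccr7, Fscn1, Ccl22 and others) of 27496 to 37956 CPM. Summed levels of 12 monocyte and macrophage genes were 413 to 1092 CPM in WT, 868 to 3201 in KO-labelled and 1749 to 3213 in PBS libraries.

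Levels of the members were first compared with each other per length, as CPM per kilobase of exonic sequence, because a longer transcript gives more reads. In WT libraries Sirpa stood highest, at 24.4 ± 5.04 CPM per kb (SD, n = 20), followed by Irf4 at 13.8 ± 2.85 and Cd209a at 7.74 ± 5.65. Mgl2 (5.86 ± 4.44), Klf4 (4.48 ± 1.56) and Zeb2 (4.37 ± 0.767) came next, and Clec10a (1.54 ± 0.971) and Clec4a4 (0.983 ± 0.926) were lowest. Of these neighbours in WT, Irf4 and Cd209a, Mgl2 and Klf4, Klf4 and Zeb2, and Clec10a and Clec4a4 differed by less than the SD of their difference across libraries. In PBS libraries the order changed at the top: Cd209a led with 39.1 ± 15.1 CPM per kb (n = 12), ahead of Sirpa (25.6 ± 5.96), Mgl2 (23.2 ± 11.3), Klf4 (15.2 ± 5.05), Irf4 (12.1 ± 2.21), Clec10a (6.01 ± 2.21), Zeb2 (3.49 ± 0.801) and Clec4a4 (0.862 ± 0.592). There the first 5 could not be ordered beyond the spread of the differences between neighbours. In KO-labelled libraries Sirpa was again first (28.8 ± 9.76, n = 12), with Cd209a (18.0 ± 14.5), Mgl2 (15.1 ± 17.4), Irf4 (14.6 ± 2.95), Klf4 (10.3 ± 2.85), Clec10a (4.47 ± 5.19), Zeb2 (3.61 ± 1.37) and Clec4a4 (1.14 ± 1.46) behind it. Among these, only the steps from Irf4 to Klf4, from Klf4 to Clec10a and from Zeb2 to Clec4a4 exceeded the SD of the difference. Clec4a4 was the lowest member in every group and was at 0 in 2 WT and 4 KO-labelled libraries.

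**Figure D1:**
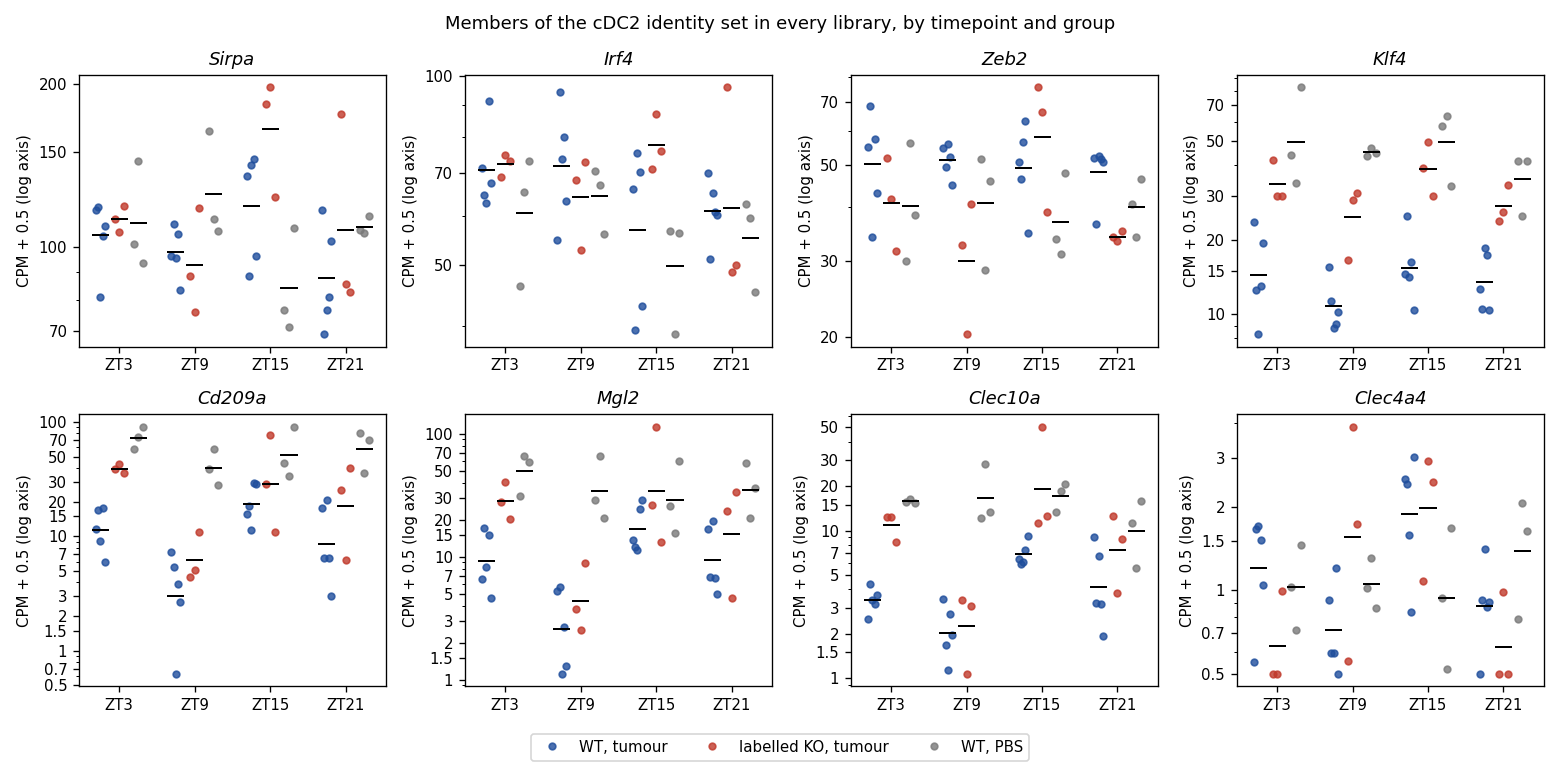
CPM + 0.5 of each member on a log axis (y) in each of the 44 libraries, by timepoint (x) and group. Dots are libraries and black lines the means of the log values of a group at a timepoint. WT libraries (blue) of Klf4 all lie below the PBS libraries (grey), and WT and KO-labelled (red) libraries of Cd209a, Mgl2 and Clec10a have their lowest means at ZT9, where libraries overlap with those of other timepoints except for Clec10a in the KO-labelled group.

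The comparison of WT with PBS libraries asks how the presence of tumour cells goes with expression of the set in mice without the floxed deletion. Of the 4 lectins, Cd209a, Mgl2 and Clec10a, and with them Klf4, were lower in WT, averaged over the 4 timepoints, whereas Zeb2 was slightly higher and Sirpa, Irf4 and Clec4a4 did not pass the test. Of the 8 members, 4 were called lower, beside 24.6% of all genes tested, and 1 was called higher, beside 13.3% (limma on log2(CPM + 0.5), adjusted p under 0.05). The median difference of the members was −0.90 on the log2 scale, beside −0.04 for all genes tested. With median-of-ratios scaling, 2079 genes were called higher and 2430 lower in place of 1589 and 2940, and the members called remained 1 higher and 4 lower.

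Klf4 was the only member whose groups did not overlap, beside 2.15% of all genes tested. Its level was 7.82 CPM at the lowest, 12.3 at the median and 24.4 at the highest of the 20 WT libraries, and 24.5, 43.2 and 82.1 CPM in the 12 PBS libraries. The log2 difference was −1.73 ± 0.16 (SE; 95% confidence interval −2.06 to −1.40), a level 3.31-fold lower in WT (limma, adjusted p = 2.29e-09). Without subtraction of the means of group and timepoint, the genes most like Klf4 over the 44 libraries were Rgcc (Pearson's r = 0.93), Ccl4 (0.92) and Nr4a1, an immediate early gene (0.92), named after their values were seen. The part of such genes in the difference of Klf4 was not tested. All folds here are on the scale of log2(CPM + 0.5), which understates changes of low genes.

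Cd209a showed the largest difference of the set. It ranged from 0.129 CPM over a median of 9.76 to 28.8 CPM in WT and from 27.6 over 57.8 to 90.5 CPM in PBS libraries. The groups met only at the edge, since 18 of 20 WT libraries lay below every PBS library. The log2 difference was −2.64 ± 0.31 (−3.27 to −2.01), or 6.24-fold lower in WT (limma, adjusted p = 1.15e-07).

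The galactose-type lectins behaved in the same manner. Mgl2 was at 0.620, 7.07 and 28.2 CPM (lowest, median, highest) in WT and at 15.1, 33.3 and 65.8 CPM in PBS libraries, with 15 of 20 WT libraries below every PBS library. Its log2 difference was −2.21 ± 0.30 (−2.82 to −1.60), 4.63-fold lower (limma, adjusted p = 1.10e-06). Clec10a was at 0.632, 2.91 and 8.71 CPM in WT and at 5.09, 14.998 and 27.7 CPM in PBS libraries. For this gene 13 of 20 WT libraries lay below all PBS libraries, and the log2 difference was −1.96 ± 0.20 (−2.37 to −1.55), 3.90-fold lower (limma, adjusted p = 1.07e-08). Mgl2 and Clec10a share part of their sequence: 13.1% of the distinct 50-base stretches of Mgl2 transcripts and 9.02% of those of Clec10a also occur in other genes, 270 of them in both, and both had fractions of a read in 43 of 44 libraries. Their values are uncertain to that extent, whereas Cd209a shared no such stretch with another gene.

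The remaining members differed little. Zeb2 was at 33.6, 51.3 and 68.0 CPM in WT and 28.1, 39.0 and 55.8 CPM in PBS libraries, and the ranges overlapped broadly. Its log2 difference of 0.33 ± 0.12 (0.10 to 0.57) passed the test (limma, adjusted p = 0.0230), and the call was lost without PBS ZT3 replicate 1, PBS ZT9 replicate 2 or PBS ZT15 replicate 2 (adjusted p of 0.0509 to 0.0631). Zeb2 transcripts shared 2.26% of their 50-base stretches with other genes, most of them with the antisense gene Zeb2os, so reads of the pair could not be fully told apart. Sirpa was at 68.7, 103 and 145 CPM in WT and 70.9, 107 and 163 CPM in PBS libraries, with a log2 difference of −0.06 (95% confidence interval −0.27 to 0.14; limma, adjusted p = 0.667). Irf4 was at 39.0, 65.2 and 93.7 CPM in WT and 38.4, 57.6 and 72.8 CPM in PBS libraries, with a log2 difference of 0.18 (−0.04 to 0.40; limma, adjusted p = 0.187). For both genes the interval holds no change beyond 0.40 in either direction. Clec4a4, with medians of 0.485 and 0.526 CPM, had an interval of −0.44 to 0.46, and 15.7% of its 50-base stretches occur in Clec4a2.

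**Figure D2:**
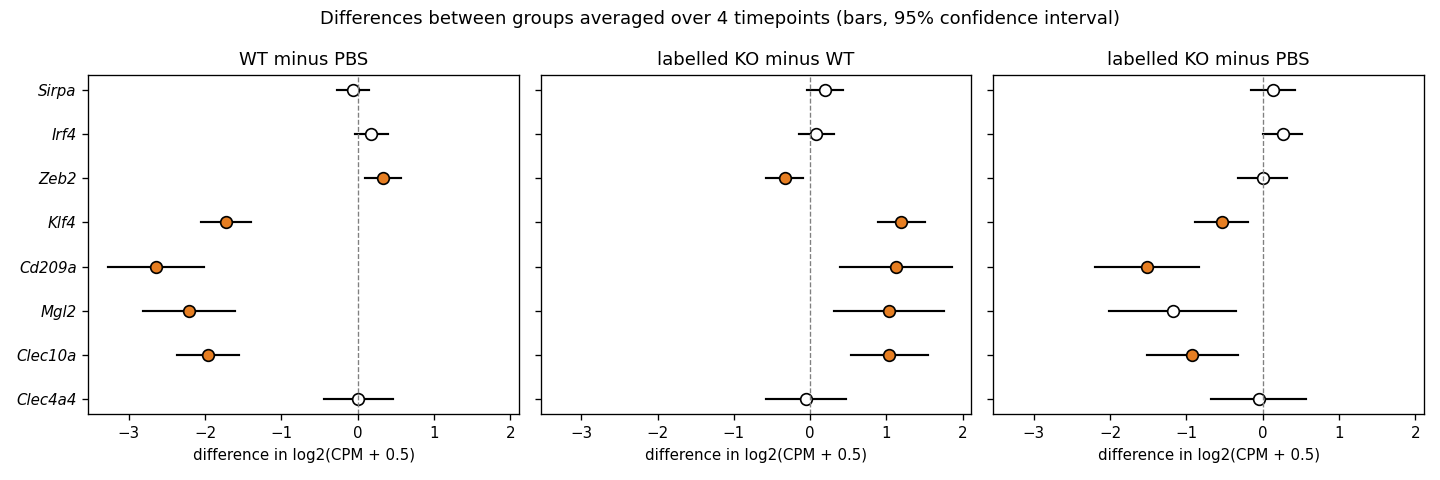
Difference in log2(CPM + 0.5) (x) of each member (y) for 3 comparisons of groups averaged over the 4 timepoints. Circles are estimates, bars the 95% confidence intervals, and orange circles passed an adjusted p under 0.05. Klf4, Cd209a, Mgl2 and Clec10a lie to the left for WT minus PBS and to the right for KO-labelled minus WT.

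In bulk samples, fewer cells of a type and less of an RNA per cell cannot be told apart, and markers of other cells moved in the same direction as the lectins and Klf4. Of 12 monocyte and macrophage genes tested, 10 were lower and 1 higher in WT than in PBS, with log2 differences of −1.85 for Lyz2 (lysozyme) and −2.09 for Ly6c2, a marker of inflammatory monocytes. All 10 NK cell genes tested were lower (Ncr1, a log2 difference of −3.43). Of 12 cDC1 genes, 11 were lower and 1 higher. Of 8 plasmacytoid dendritic cell genes, 5 were lower (Siglech, −2.96) and 1 higher, and of 12 T cell genes tested, 9 were lower and 2 higher. Summed NK cell genes were at 61.0 to 109 CPM in WT and 154 to 766 CPM in PBS, summed cDC1 genes at 920 to 1162 and 1222 to 1693 CPM, and summed plasmacytoid dendritic cell genes at 258 to 348 and 331 to 464 CPM. None of the genes of these lists was at 0 in all libraries of a group. By contrast, migratory dendritic cell genes were 7 higher and 2 lower of 12 (7 and 0 with median-of-ratios scaling), and pan-cDC genes 2 higher and 4 lower of 10. The part of these cells in the differences of the members was not tested.

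Other genes used to describe cDC2 were also mostly lower in WT. Of 22 such genes, 14 were lower and 3 higher, with a median log2 difference of −0.86 beside −0.04 for all genes tested. Their summed level overlapped fully, at 5028 to 6365 CPM in WT and 5179 to 5816 CPM in PBS libraries. Among the called genes with the smallest p were Cd7 (−2.54), Ccr2, a chemokine receptor of cells that come from blood (−2.99), and Csf1r, the receptor of M-CSF (−1.74). Of 13 paralogues of the members tested, 12 were lower and 1, Zeb1, was higher (0.35; this gene was named after its value was seen). Among them Cd209b (−2.23) and Cd209d (−2.03) followed Cd209a, and Clec4a3 (−1.66) and Clec4a2 (−1.69) were lower although Clec4a4 did not pass the test. The lists were chosen with earlier results of these data known, and nothing particular to them is drawn from these counts.

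**Figure D3:**
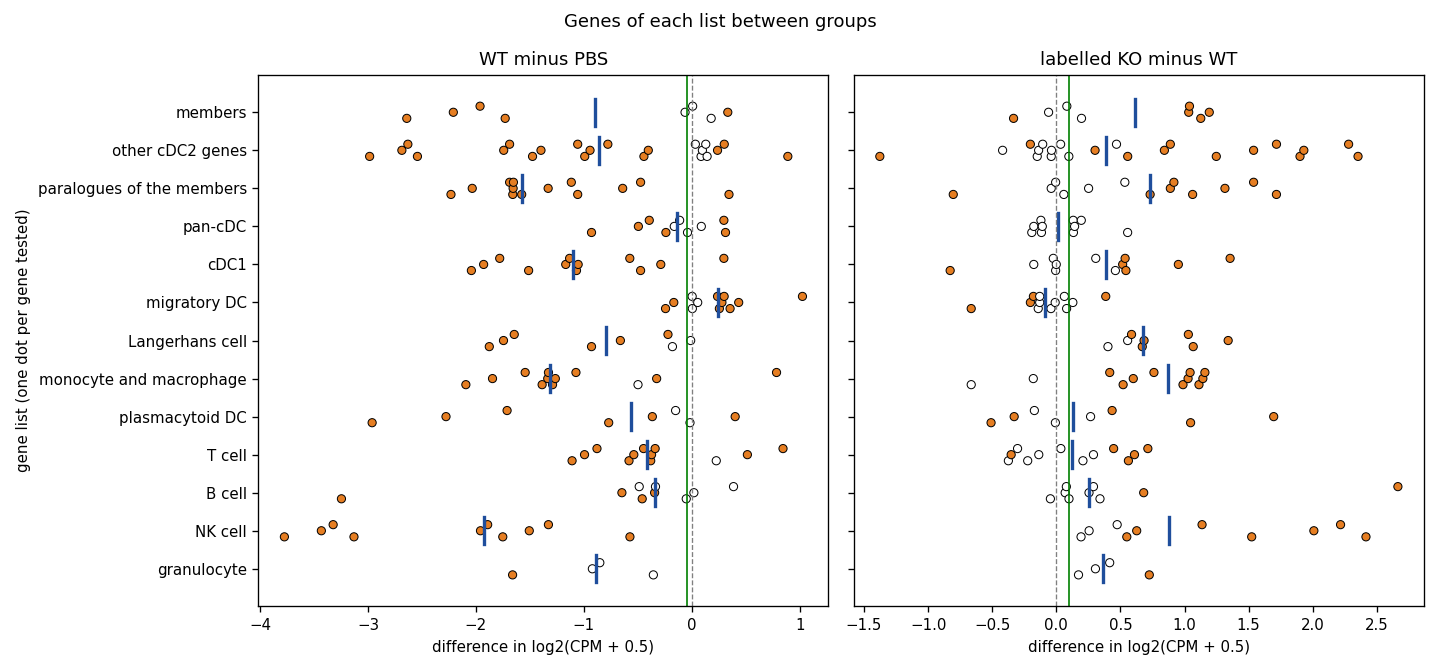
Difference in log2(CPM + 0.5) (x) of every gene tested in each gene list (y), averaged over the 4 timepoints. Orange dots passed an adjusted p under 0.05, the blue bar is the median of the list and the green line the median of all genes tested, and the dashed line marks 0. In the left panel the medians of the members (−0.90), of NK cell (−1.92) and of monocyte and macrophage genes (−1.31) lie left of the green line at −0.04.

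The comparison of KO-labelled with WT libraries asks how the genotype label goes with the set when tumour cells are present. It shares the WT libraries with the preceding comparison, so opposite directions in the pair are not independent, and KO-labelled and PBS libraries were therefore also compared directly. The same 4 genes, Klf4, Cd209a, Mgl2 and Clec10a, were higher in KO-labelled libraries and Zeb2 was lower. These are 4 of 8 members called higher, beside 23.5% of all genes tested, and 1 called lower, beside 10.2%. With median-of-ratios scaling, 1748 genes were called higher and 1753 lower in place of 2813 and 1218, and the members called remained 4 higher and 1 lower. No member was without overlap between these groups, beside 0.903% of all genes tested.

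Klf4 was at 16.1, 29.5 and 49.0 CPM (lowest, median, highest) in the 12 KO-labelled libraries. Of these, 10 lay above every WT library, and the log2 difference was 1.19 ± 0.15 (0.88 to 1.501), 2.29-fold higher than in WT (limma, adjusted p = 8.47e-07). Cd209a was at 3.94, 26.6 and 76.6 CPM, with 5 of 12 KO-labelled libraries above every WT library and a log2 difference of 1.13 ± 0.36 (0.40 to 1.86; limma, adjusted p = 0.0158). Clec10a was at 0.567, 9.50 and 50.1 CPM, with a log2 difference of 1.04 ± 0.25 (0.53 to 1.54; limma, adjusted p = 0.00191). Mgl2, at 2.03, 21.4 and 114 CPM, had a log2 difference of 1.03 ± 0.35 (0.32 to 1.75; limma, adjusted p = 0.0235).

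The lectins spread much more than Klf4 in this group, with coefficients of variation of 80.5% (Cd209a), 116% (Mgl2) and 116% (Clec10a) beside 27.6% for Klf4. Replicate 2 at ZT15 held the highest value of all 44 libraries for Mgl2 and Clec10a, at 114 and 50.1 CPM. In this library the summed monocyte and macrophage genes, 3201 CPM, were also the highest of the KO-labelled group. Without it the difference of Mgl2 was 0.82 and no longer called (adjusted p = 0.0614), while Cd209a (0.95, adjusted p = 0.0405) and Clec10a stayed called. The calls of Cd209a and Mgl2 were also lost with array weights and with a term for the replicate number (adjusted p of 0.0597 for Cd209a and 0.0958 for Mgl2 in the latter). The call of Mgl2 was also lost without KO ZT9 replicate 3 or KO ZT21 replicate 3 (adjusted p of 0.0542 or more).

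Zeb2 was at 19.8, 36.6 and 75.2 CPM in KO-labelled libraries, a log2 difference of −0.33 ± 0.12 (−0.58 to −0.09; limma, adjusted p = 0.0311). Its call was lost without KO ZT3 replicate 3, KO ZT9 replicate 2 or KO ZT15 replicate 3 (adjusted p of 0.0723 to 0.0814). It was also lost in 1 of the other settings. Sirpa, at 75.5, 115 and 197 CPM, differed by 0.20 (−0.04 to 0.43; limma, adjusted p = 0.191). Irf4, at 48.4, 71.5 and 95.5 CPM, differed by 0.08 (−0.14 to 0.31; limma, adjusted p = 0.599), and Clec4a4 by −0.06 (−0.58 to 0.46; limma, adjusted p = 0.880). None of these 3 genes was called, and the sign of the difference of Irf4 and of Clec4a4 changed under other settings. Of the lists, monocyte and macrophage genes were 10 higher of 12 (8 with median-of-ratios scaling) and NK cell genes 7 higher of 10 (6 with that scaling). The cDC1 genes were mixed, 5 higher and 1 lower of 12, as were plasmacytoid dendritic cell genes, 3 higher and 2 lower of 8. Other cDC2 genes were 11 higher and 2 lower of 22 (10 and 4 with median-of-ratios scaling), with Cd7 (1.93) and Ccr2 (2.35) higher and Notch2, a receptor needed by a splenic cDC2 subset, lower (−1.38). Paralogues were 7 higher and 1, Zeb1, lower (−0.80) of 13. Their part in the differences of the members was not tested.

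KO-labelled and PBS libraries differ in both genotype label and treatment, so their differences cannot be assigned to either. Compared with PBS libraries, Cd209a, Clec10a and Klf4 were lower in KO-labelled libraries, and Mgl2 and Clec4a4 did not pass the test. Cd209a was lower than in PBS, with a log2 difference of −1.51 ± 0.32 (−2.20 to −0.83, 2.86-fold lower; limma, adjusted p = 0.00888), with 6 of 12 KO-labelled libraries below every PBS library. Clec10a (−0.92, −1.52 to −0.33; limma, adjusted p = 0.0479) and Klf4 (−0.54, −0.88 to −0.19; limma, adjusted p = 0.0471) passed the test narrowly, and Mgl2 (−1.18, −2.01 to −0.35; limma, adjusted p = 0.0638) did not, although it passed without KO ZT15 replicate 2 or KO ZT21 replicate 3 (adjusted p of 0.0226 and 0.0343). This gives 3 of 8 members called lower, beside 4.3% of all genes tested, and none higher, beside 5.43%. No member was without overlap, beside 0.159%, and KO ZT15 replicate 2 lay above every PBS library for Mgl2 (114 CPM) and Clec10a (50.1 CPM). With median-of-ratios scaling, the share of calls that were higher was 39.3% in place of 55.8%, and the same number of members, 3, was called lower. The calls of Clec10a and Klf4 were fragile, being lost when any of 18 and 16 of the 24 libraries, respectively, was left out (adjusted p up to 0.0868 and 0.0876), whereas Cd209a kept its call whichever library was left out. Mgl2, not called here, passed the test in 3 of the other settings. Zeb2 (0.00, −0.32 to 0.33), Sirpa (0.13, −0.16 to 0.42), Irf4 (0.26, 0.01 to 0.51; limma, adjusted p = 0.165) and Clec4a4 (−0.05, −0.68 to 0.57) were not called. Markers of other cells were also lower in KO-labelled than in PBS libraries: 4 of 12 monocyte and macrophage genes, 7 of 12 cDC1 genes, 5 of 10 NK cell genes and 6 of 8 plasmacytoid dendritic cell genes were called lower and none of these lists had a gene called higher. Their part in the differences of the members was not tested here either. In mean CPM over the group, Klf4, Cd209a, Mgl2 and Clec10a were thus ordered PBS, KO-labelled, WT from high to low, and of these steps only that of Mgl2 from PBS to KO-labelled did not pass the test.

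The libraries of the 4 timepoints ask whether the set varied over the day. In WT, Cd209a, Mgl2 and Clec10a differed among timepoints, with the lowest mean at ZT9 and the highest at ZT15. These are 3 of 8 members called by limma's F test, beside 5.28% of all genes tested, and 4 of 8 at an unadjusted p under 0.05, beside 23.1%. Every ZT9 library lay below every ZT15 library for these 3 members in WT, beside 2.99% of all genes tested. This pair of timepoints was chosen after the values were seen.

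Cd209a in WT was at 11.0, 16.7, 8.58, 17.3 and 5.48 CPM at ZT3, at 6.86, 4.88, 0.129, 3.36 and 2.17 CPM at ZT9, at 15.1, 17.9, 10.9, 28.8 and 28.1 CPM at ZT15, and at 17.2, 6.03, 20.4, 6.01 and 2.51 CPM at ZT21. The ZT3 and ZT21 libraries overlapped with both other times, and the mean at ZT15 was 5.79 times that at ZT9 (20.2 ± 7.96 against 3.48 ± 2.57 CPM; SD, n = 5; limma F test over 4 timepoints, adjusted p = 0.0443). This call was lost without any of 13 of the 20 libraries, with adjusted p-values up to 0.0885. It was also lost in 5 of 10 other settings, namely a pseudocount of 0.1, all genes of the table, ordinary least squares, a term for the replicate number and replicates 1 to 3 only (adjusted p = 0.402 in the last).

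Mgl2 in WT followed the same course. It was at 6.14, 16.5, 7.84, 14.7 and 4.13 CPM at ZT3, at 4.76, 5.23, 0.620, 2.19 and 0.790 CPM at ZT9, at 13.2, 11.5, 10.8, 24.1 and 28.2 CPM at ZT15, and at 16.2, 6.31, 19.2, 6.22 and 4.51 CPM at ZT21. The mean at ZT15 was 6.46 times that at ZT9 (limma F test, adjusted p = 0.0198), and the call was lost without WT ZT9 replicate 3 or WT ZT9 replicate 5 (adjusted p of 0.0615 and 0.0553). It was also lost with replicates 1 to 3 only. The lowest ZT9 library in WT was the same for Mgl2, Cd209a and Clec10a, namely replicate 3.

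Clec10a in WT was at 2.03, 3.81, 2.87, 2.69 and 3.17 CPM at ZT3, at 2.96, 1.18, 0.632, 2.20 and 1.45 CPM at ZT9, at 5.95, 5.43, 5.59, 6.82 and 8.71 CPM at ZT15, and at 8.60, 2.703, 6.21, 2.69 and 1.42 CPM at ZT21. Its ZT15 libraries were close together and above all ZT3 libraries as well, and the mean at ZT15 was 3.86 times that at ZT9 (limma F test, adjusted p = 0.0262). The call was lost without WT ZT9 replicate 2, 3 or 5 or WT ZT15 replicate 1, 4 or 5 (adjusted p of 0.0518 to 0.0668). It was also lost with a term for the replicate number and with replicates 1 to 3 only.

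Clec4a4 also had its lowest mean at ZT9 and its highest at ZT15 in WT, at 0.264 ± 0.296 and 1.57 ± 0.863 CPM (SD, n = 5), but with an adjusted p of 0.0876 (limma F test) it was not called. It was called without WT ZT3 replicate 1 or WT ZT15 replicate 4 (limma F test, adjusted p of 0.0468 and 0.0435) and in 1 other setting. The summed monocyte and macrophage genes were also lower at ZT9 than at ZT15, with 413 to 584 CPM in the 5 ZT9 libraries and 835 to 1078 CPM in the 5 ZT15 libraries. Of these 12 genes, 7 were called among timepoints in WT. Summed pan-cDC genes were separated in the same direction (14555 to 18540 CPM at ZT9 and 19008 to 28071 at ZT15) and summed migratory dendritic cell genes in the opposite one (33651 to 36338 and 29683 to 33074 CPM), although no gene of either list was called among timepoints. Of 10 NK cell genes, 3 were called. The part of these genes in the course of the lectins was not tested. Of the other cDC2 genes, 6 of 22 were called, among them Ltb (limma adjusted p = 0.00560) and Ccr2 (limma adjusted p = 0.00702), and of the paralogues 6 of 13, among them Clec4a1, Cd209d, Klf2 and Clec4a3.

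In KO-labelled libraries no gene was called among timepoints by limma's F test, so the percentage beside the members is 0%. At an unadjusted p under 0.05 there were 1232 genes, 10.3%, and 3 members: Clec10a (limma adjusted p = 0.290), Mgl2 and Cd209a (limma adjusted p = 0.443 for both). Cd209a was at 38.2, 42.5 and 35.3 CPM at ZT3, at 3.94, 4.55 and 10.5 CPM at ZT9, at 28.0, 76.6 and 10.5 CPM at ZT15, and at 25.2, 5.75 and 38.9 CPM at ZT21. Mgl2 was at 27.6, 39.9 and 19.7 CPM at ZT3, at 3.25, 2.03 and 8.42 CPM at ZT9, at 26.0, 114 and 12.8 CPM at ZT15, and at 23.1, 4.13 and 33.2 CPM at ZT21. Clec10a was at 11.9, 11.9 and 7.81 CPM at ZT3, at 2.90, 0.567 and 2.57 CPM at ZT9, at 10.7, 50.1 and 12.1 CPM at ZT15, and at 11.99, 3.24 and 8.28 CPM at ZT21. ZT9 thus again had the lowest means of these lectins, and at ZT9 the means of KO-labelled libraries were 6.32 ± 3.60 (Cd209a), 4.57 ± 3.39 (Mgl2) and 2.01 ± 1.26 CPM (Clec10a), compared with 3.48 ± 2.57, 2.72 ± 2.17 and 1.68 ± 0.908 CPM in WT. The mean of 7 of the 8 members was lowest at ZT9 in this group, and for Sirpa, Cd209a, Mgl2 and Clec10a every ZT9 library lay below every ZT15 library, beside 16.3% of all genes tested, so non-overlap was common here. Summed monocyte and macrophage genes were at 868 to 1156 CPM at ZT9 and at 1702 to 3201 CPM at ZT15. Of these 12 genes, 9 had an unadjusted p under 0.05 (limma F test). Summed migratory dendritic cell genes went the other way, with 35254 to 37956 and 28578 to 33728 CPM. The part of these genes in the course of the lectins was not tested.

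In PBS libraries none of the members was called among timepoints, and no gene was (0%). At an unadjusted p under 0.05 there were 890 genes, 7.44%, and none of the members. Cd209a was at 58.2, 72.8 and 90.0 CPM at ZT3, at 38.1, 57.4 and 27.6 CPM at ZT9, at 43.5, 33.5 and 90.5 CPM at ZT15, and at 79.1, 35.6 and 69.1 CPM at ZT21. Mgl2 was at 31.0, 65.2 and 59.1 CPM at ZT3, at 28.7, 65.8 and 20.3 CPM at ZT9, at 25.5, 15.1 and 59.6 CPM at ZT15, and at 57.2, 20.01 and 35.6 CPM at ZT21. Clec10a was at 15.1, 15.7 and 14.9 CPM at ZT3, at 11.7, 27.7 and 12.8 CPM at ZT9, at 12.8, 18.1 and 20.3 CPM at ZT15, and at 10.7, 5.09 and 15.3 CPM at ZT21. All timepoints overlapped for these genes except ZT3 and ZT9 of Cd209a, and the ratio of the highest to the lowest mean was 1.80 (Cd209a), 1.55 (Mgl2) and 1.68 (Clec10a), beside 5.79, 6.46 and 3.86 in WT. No member had every ZT9 library below every ZT15 library, beside 6.78% of all genes tested.

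Whether the courses themselves differed was tested with interaction terms. Between WT and PBS, 0 genes were called by limma (0%), 1423 had an unadjusted p under 0.05 (11.9%), and 4 members were among them: Clec10a, Mgl2, Sirpa and Clec4a4. Their adjusted p-values were 0.267, 0.283, 0.313 and 0.403, and that of Cd209a was 0.507, so a difference between the courses is not shown for any member. Between KO-labelled and WT libraries 6 genes were called, 0.0502%, none of them a member. The count of genes was unstable, being 4 to 311 when a library was left out (311 without WT ZT3 replicate 3) and 1071 with array weights, with no member among them. At an unadjusted p under 0.05 there were 2184 genes, 18.3%, and 1 member, Zeb2 (limma adjusted p = 0.251). The interactions of Cd209a, Mgl2 and Clec10a had adjusted p-values of 0.825, 0.872 and 0.392.

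A cosine of 24 h was also fitted in each group with limma, which is not the cosinor tool that the study used. In WT 3 genes passed limma's F test after adjustment (0.0251%) and 1101 before it (9.2%). The first count was 1 to 43 when a library was left out (43 without WT ZT3 replicate 3) and 147 with array weights, with no member among these genes. None of the members passed after adjustment and 2 did before: Clec10a, with an amplitude of 0.73 on the log2 scale and a peak at 18.0 h (limma adjusted p = 0.378), and Mgl2, with an amplitude of 1.03 and a peak at 19.4 h (limma adjusted p = 0.420). Cd209a had an amplitude of 0.85 and a peak at 19.2 h (limma adjusted p = 0.608), although its 4 timepoints differed by the F test. In KO-labelled libraries no gene passed after adjustment (0%), 1258 did before it (10.5%), and Clec4a4 was the only member among them (amplitude 1.06, peak at 12.4 h, limma adjusted p = 0.408). In PBS libraries no gene passed after adjustment (0%), 883 did before it (7.38%), and no member was among these.

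None of the other members was called among timepoints in any group. Means of Irf4 at a timepoint ran from 58.4 ± 16.5 to 72.7 ± 15.2 CPM in WT, from 64.3 ± 10.5 to 77.5 ± 8.11 in KO-labelled and from 50.1 ± 10.2 to 64.1 ± 7.53 in PBS libraries. Sirpa ran from 88.8 ± 19.9 CPM at ZT21 to 121 ± 27.1 at ZT15 in WT, while in PBS its mean was lowest at ZT15 (85.0 ± 20.2). In the KO-labelled group the mean of Sirpa was 93.7 ± 21.8 CPM at ZT9 and 168 ± 39.2 at ZT15, without a call (limma F test, adjusted p = 0.555). Klf4 means were 10.5 ± 2.702 to 15.5 ± 5.37 CPM in WT, 25.1 ± 7.82 to 39.0 ± 9.76 in KO-labelled and 35.5 ± 9.52 to 53.0 ± 25.7 in PBS libraries, so that the order of the groups was the same at every timepoint. Zeb2 means in WT lay between 48.2 ± 6.85 and 51.1 ± 13.3 CPM, and those in KO-labelled libraries between 30.7 ± 10.2 (ZT9) and 59.9 ± 19.1 CPM (ZT15).

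Finally, members were compared with each other across libraries after the mean of each group and timepoint had been subtracted from log2(CPM + 0.5), so that differences between groups and times do not enter. The values share library depth and the makeup of the sort, and 28 pairs were computed over 44 libraries, of which 21 had a positive r. The strongest relation was that of Cd209a with Mgl2 (Pearson's r = 0.91, Spearman's rho = 0.93, permutation within conditions, p = 1e-05 for both, the smallest that 100000 resamples can give). The adjusted p over the 28 pairs was 0.00028 for r, and r was 0.92 without the 2 libraries farthest from the median of Cd209a. Within groups r was 0.90 in WT, 0.97 in KO-labelled and 0.95 in PBS libraries. Cd209a with Clec10a (r = 0.74, rho = 0.69, permutation adjusted p = 0.00028) and Mgl2 with Clec10a (r = 0.75, rho = 0.73, permutation adjusted p = 0.00049) formed the rest of this group of lectins. They were 0.70 and 0.68 without the 2 farthest libraries. The relation of Mgl2 with Clec10a includes reads that could come from either gene. Cd209a had no fractions of a read in any library, but its relations with Mgl2 and Clec10a still rest on the uncertain values of those genes. The part of such reads in these relations was not tested.

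A further pair of relations passed the adjustment, that of Sirpa with Irf4 (r = 0.67, rho = 0.63, permutation adjusted p = 0.00129, r = 0.60 without the 2 farthest libraries) and that of Sirpa with Zeb2 (r = 0.63, rho = 0.66, permutation adjusted p = 0.00028, r = 0.70 without them). The relation of Sirpa with Irf4 was 0.71 in WT, 0.86 in KO-labelled and 0.33 in PBS libraries. Klf4, which differed between groups like the lectins, was not clearly related to any of them within conditions, with r of 0.29 (Cd209a), 0.13 (Mgl2) and 0.14 (Clec10a). Clec4a4 had r between −0.34 and 0.07 with the others.

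**Figure D4:**
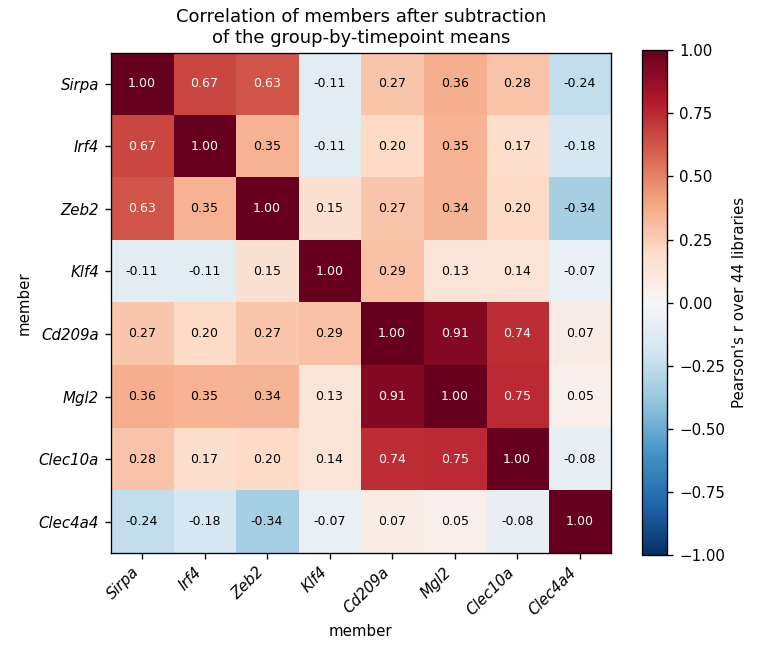
Pearson's r between members over 44 libraries after the mean of each group and timepoint was subtracted from log2(CPM + 0.5). Rows and columns are members and the colour runs from −1 (blue) to 1 (red). Cd209a, Mgl2 and Clec10a form a block with r of 0.74 to 0.91, and Sirpa is related to Irf4 (0.67) and Zeb2 (0.63).

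Among all 11963 genes tested, the gene most like Cd209a by this measure was Mgl2 (r = 0.91), and the reverse also held. Next for Cd209a came Cd300a, an inhibitory receptor of myeloid cells (0.75), and Clec10a (0.74), and for Mgl2 Plbd1 (0.76) and Gm2a (0.76). Clec10a was closest to Cmtm3 (0.75), Mgl2 (0.75) and Mrc1, the mannose receptor (0.74). For Klf4 the nearest genes were Nr4a1 (0.72), Srsf5 (0.71) and Ier2 (0.71), of which Nr4a1 and Ier2 are immediate early genes. Sirpa was closest to Itgb1 (0.80), Adam8 (0.80) and Pnpla8 (0.79), Irf4 to Rassf4 (0.78), Arhgef6 (0.78) and Exoc4 (0.76), and Zeb2 to Pde2a (0.75), Ctdspl2 (0.74) and Myo1e (0.73). Clec4a4, near its lower limit, was closest to 1700007K13Rik (0.67), 4931428F04Rik (0.58) and Grin2c (0.57). These are descriptions over 44 libraries that carry no test.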

How the data were processed

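RNA-seq of sorted CD45+CD11c+MHCIIhigh lymph node cells gave 44 libraries, each from 1 mouse, grouped by the sample labels. Reads of 50 bases were aligned by the authors to mm10 with STAR 2.7.0 and counted on genes with HTSeq 0.9.1, and the values deposited are CPM scaled by library size, with a sum of 1000000 per library. In each library, 87.4% to 89.3% of the values above 0 are whole multiples of 1 read within 0.01 read, which gave the depth. The rest are fractions of a read, so no test for counts was run. How they arose is not given in the sources used here.

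Genes at 1 CPM or more in 5 or more libraries were fitted with limma 3.58.1 (R 4.3.3) on log2(CPM + 0.5), p-values adjusted after Benjamini and Hochberg over the 11963 genes that remained, and a threshold of 0.05. Tests were a 24-h cosine, an F test over timepoints, contrasts of groups averaged over timepoints and interactions with time. The fits were tested on simulated data. The members, gene lists and named genes were chosen with earlier results of these data known. All members, the called genes of each list with the smallest p (at most 4 per comparison) and the 3 genes most correlated with each member could be named, and some of these are not reported here. No pair of libraries was identical, and 0 columns had no sample. The 2 experiments of the study are not given in the labels, so no batch was fitted. Exonic lengths and shared 50-base stretches are from GENCODE M21. Alternatives were other pseudocounts, filters, scalings and variance models, a term for the replicate number and the omission of each library. Figures were drawn with matplotlib 3.10.9, and correlations computed with numpy 2.4.6 and pandas 2.3.3 under Python 3.11.15.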

Additional observations from a re-analysis of the deposited data

Results flagged for a closer look

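Among 32 groups of members in WT libraries at a timepoint, 1 held a library that stood far from the other 4. Zeb2 in WT ZT21 replicate 2 was at 36.0 CPM, whereas the other libraries of that condition lay between 50.3 and 52.1 CPM, and the gap took up 0.886 of the range. By chance, about 1.6 such groups would be found among 32.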

How the results depend on the processing

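The differences of Klf4, Cd209a, Mgl2 and Clec10a between WT and PBS kept their direction and their call in every setting in which they were tested (Clec10a was not under the filter on a mean of 10 CPM), with 4 to 5 members called when a library was left out. Of the members, 5 were called between KO-labelled and WT libraries, 3 with array weights, which lost Cd209a and Mgl2, and 4 to 5 when a library was left out. With the replicate block, a term for the replicate number, 3 were called there, with the same 2 genes lost, 1 among timepoints in WT, with Cd209a and Clec10a lost, and 1 between KO-labelled and PBS libraries, with Klf4 and Clec10a lost, and it moved no other count of members called. Libraries with the same number did not deviate together over all genes tested (mean r = -0.003, 9 of 210 pairs over 0.1, and 8 of 44 libraries were closest to one with their own number). No pairing of animals by number was therefore seen, but this check cannot exclude one that affects few genes. Among timepoints in WT, the 3 members called became 5 with array weights, 0 with replicates 1 to 3 only, and 0 to 3 when a library was left out. Between KO-labelled and PBS libraries, the 3 called became 1 with a pseudocount of 0.1, with all genes of the table or with ordinary least squares, and 1 to 4 when a library was left out. Among all genes tested, the 632 called among timepoints in WT became 2 with replicates 1 to 3 only, 2462 with array weights and 278 to 1313 when a library was left out (lowest without WT ZT15 replicate 1, highest without WT ZT3 replicate 3), and 1164 between KO-labelled and PBS libraries became 2494 with array weights and 731 to 1813 when a library was left out (lowest without PBS ZT3 replicate 3, highest without KO ZT21 replicate 3). The count of 0 for the interaction of WT and PBS with time became up to 38 when a library was left out (without WT ZT15 replicate 2). The cause of these changes was not tested.

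Some differences that were not called changed sign. Clec4a4 was at -0.11 between WT and PBS with a pseudocount of 0.1, at 0.0053 between KO-labelled and WT with array weights and at 0.020 between KO-labelled and PBS with a pseudocount of 1. Irf4 was at -0.012 (median-of-ratios scaling) and -0.024 (array weights) between KO-labelled and WT, and Zeb2 at -0.043 and -0.0149 between KO-labelled and PBS in the same settings. With 1 library left out, Clec4a4 ran from -0.10 to 0.11, from -0.23 to 0.12 and from -0.22 to 0.13 in the comparisons of WT with PBS, KO-labelled with WT and KO-labelled with PBS, and Zeb2 from -0.063 to 0.073 in the last. Clec4a4 had a median under 1 CPM in each group, few reads at these depths, and its values also include fractions of a read.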

Other observations

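Langerhans cell genes, which mark dendritic cells of the epidermis, were 6 lower of 8 in WT than in PBS, beside 24.6% of all genes tested. In KO-labelled libraries 6 of 8 were higher than in WT, beside 23.5%, among them Epcam (0.67 on the log2 scale). Unlike the members, 3 of these genes were higher in KO-labelled than in PBS libraries, beside 5.43% of all genes tested. They were Epcam (0.45), Cldn1 (0.41) and Cd207, the gene of langerin (0.67). Of the same list, 1 gene was called lower (2 with median-of-ratios scaling), beside 4.3%. The median log2 difference of the list was −0.32, beside 0.02 for all genes tested, so the list did not move as a whole towards higher values.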
